A study of Mus musculus with 12 samples.

Results

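Maf, Rora, Sox13, Sox4, Etv5, Stat3 and Batf are transcription factor genes of the γδT17 lineage, the γδ T cells that make interleukin 17. They were chosen by gene symbol, and all 7 were found among the 33696 genes counted. Each symbol had a single identifier, ENSMUSG00000055435 for Maf, ENSMUSG00000032238 for Rora, ENSMUSG00000070643 for Sox13, ENSMUSG00000076431 for Sox4, ENSMUSG00000013089 for Etv5, ENSMUSG00000004040 for Stat3 and ENSMUSG00000034266 for Batf. All 7 passed the filter on low counts in every comparison below.

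The study asked how loss of GFI1, a DNA-binding repressor, alters γδ T cells and their precursors. Single-cell RNA-seq with 3′ chemistry was done on adult mice of C57BL6/J background that were WT or carried a germline KO of Gfi1, so every cell of a KO mouse lacks it and not γδ T cells alone. Sorted cells were splenic γδ T cells (CD3+ and CD4neg), thymic γδ T cells (CD8neg and CD4neg) and thymic precursors of the DN1, DN2 and DN3 stages together, after magnetic depletion of B cells, myeloid cells and NK cells and, in the thymus, of part of the CD8+ cells. Each of 6 pools mixed hashtagged cells of both genotypes in a shared droplet run and was split by hashtag, which gave 12 libraries, 2 labelled WT and 2 labelled KO in each of the 3 compartments. How many mice went into a library is not given in the sources used here, so the p-values measure the spread between these libraries.

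MAF is a bZIP factor that is needed for γδT17 cells and acts on Blk and Il17a, and RORα is a nuclear receptor of T cells that make interleukin 17. SOX13 and SOX4 are HMG box factors that act early, while the γδT17 fate is set in the thymus, and ETV5 is an ETS factor that follows receptor signalling in immature γδ thymocytes. STAT3 carries the signal of the interleukin 6, 21 and 23 receptors, and BATF pairs with JUN proteins and IRF4 at genes of the interleukin 17 programme.

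The 250 bases before the annotated start were taken from RefSeq (GRCm38.p6) for 6 of the 7 genes, with 2 entries for Etv5. Maf had no entry in the promoter set used, so its promoter was not examined. The count files were made on GRCm39, so the coordinates apply to GRCm38.p6 alone. The promoters of 2 genes that were lower and 2 that were higher in γδ T cells of the KO-labelled libraries are shown, because GFI1 binds sites with the core AATC. Each runs 5′ to 3′ on the gene's strand, and capitals mark AATC or its reverse complement GATT.
Sox4 (chr13:28953700-28953949, minus strand): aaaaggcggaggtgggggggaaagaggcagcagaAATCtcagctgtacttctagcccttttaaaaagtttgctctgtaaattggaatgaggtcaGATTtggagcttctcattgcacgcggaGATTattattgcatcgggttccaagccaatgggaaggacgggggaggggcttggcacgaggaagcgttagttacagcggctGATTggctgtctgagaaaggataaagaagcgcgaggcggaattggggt
Etv5 (chr16:22439571-22439820, minus strand): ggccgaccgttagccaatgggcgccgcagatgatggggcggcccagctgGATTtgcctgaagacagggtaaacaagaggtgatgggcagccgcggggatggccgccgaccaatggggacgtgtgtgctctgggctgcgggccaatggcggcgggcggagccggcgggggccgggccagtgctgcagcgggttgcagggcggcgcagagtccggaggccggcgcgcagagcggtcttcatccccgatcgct
Rora (chr9:68653536-68653785, plus strand): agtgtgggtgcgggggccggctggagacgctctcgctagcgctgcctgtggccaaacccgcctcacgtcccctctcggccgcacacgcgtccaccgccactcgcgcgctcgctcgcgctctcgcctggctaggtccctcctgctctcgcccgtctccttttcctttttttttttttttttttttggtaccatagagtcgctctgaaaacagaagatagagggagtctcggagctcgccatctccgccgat
Batf (chr12:85686470-85686719, plus strand): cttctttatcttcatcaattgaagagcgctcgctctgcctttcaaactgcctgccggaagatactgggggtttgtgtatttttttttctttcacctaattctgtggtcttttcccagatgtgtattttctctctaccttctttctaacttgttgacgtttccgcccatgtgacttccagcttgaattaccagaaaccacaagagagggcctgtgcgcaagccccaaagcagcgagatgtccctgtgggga
The core occurred 4 times in the Sox4 window, 1 time in each Etv5 window and 0 times in those of Rora, Batf, Stat3 and Sox13. It occurred in 69.0% of 32851 promoters of this length, so its presence is common. The longer motif AAATCA, which contains it, was in none of these windows and in 12.4% of all. Letters in a window do not show binding.

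After filtering, the libraries held 6795 to 11679 cells and 42091895 to 71663962 UMIs, with a median of 4947 to 6853 UMIs per cell. Libraries of a pool shared 0 cell barcodes and other pairs shared 5 to 34. The 7 T cell and γδ markers summed to 4157 to 8054 CPM (UMIs of a gene per 1e6 UMIs of a library) and none was at 0, while the B cell list stood at 18.7 to 52.7 CPM and the myeloid list at 1.15 to 9.70 CPM. Gfi1 itself was not lower with the label KO. Its CPM was 11.8 and 18.0 (WT) against 18.1 and 18.1 (KO) in spleen, 16.5 and 17.6 against 28.9 and 19.2 in thymic γδ T cells, and 44.7 and 40.6 against 70.6 and 56.6 in DN1-DN3 cells, and the thymic γδ log2 difference was 0.62 (SE 0.20, adjusted p by edgeR 0.025). Which exons are deleted is not given in the sources used here, so a count at the 3′ end may not show the deletion, and genotypes are named below as labelled. Xist was at 0 to 0.374 CPM in the splenic libraries and at 739 to 1600 CPM in the thymic ones, and the Y-linked Ddx3y was at 82.2 to 100 CPM in spleen and 24.3 to 35.8 CPM in thymic γδ T cells. The thymic libraries thus held transcripts of both sexes and the splenic ones almost none of Xist, and sex and compartment cannot be told apart in comparisons of spleen with thymus. In DN1-DN3 cells Ddx3y also differed by label, with 28.0 and 26.0 CPM (WT) against 11.6 and 14.2 CPM (KO), and the part of the sex mix in the results there was not tested.

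Maf and Rora had their highest levels in splenic γδ T cells of the KO-labelled libraries and their lowest in DN1-DN3 cells of the WT-labelled ones. Mean Maf levels fell in the order 1395 CPM in splenic KO, 842 in thymic γδ KO, 300 in thymic γδ WT, 187 in DN1-DN3 KO, 109 in splenic WT and 15.8 in DN1-DN3 WT, and no neighbours in this order overlapped. The order of Rora was the same, from 688 to 8.78 CPM, but its thymic γδ WT and DN1-DN3 KO levels overlapped, as did DN1-DN3 KO and splenic WT. Sox4 and Etv5 instead peaked in thymic γδ T cells labelled WT, at 422 and 208 CPM, and were lowest in splenic KO, at 3.27 and 1.43 CPM. Sox13 also peaked in thymic γδ WT, at 272 CPM, followed by splenic KO at 205 CPM. Stat3 kept to 105 to 178 CPM throughout, and the ranges overlapped for 3 of its 5 pairs of neighbouring groups. Batf ran from 90.5 CPM in splenic KO to 10.7 CPM in DN1-DN3 WT, and splenic and thymic WT overlapped. These sums over all cells of a library do not tell fewer cells of a type from less RNA per cell.

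**Figure D1:**
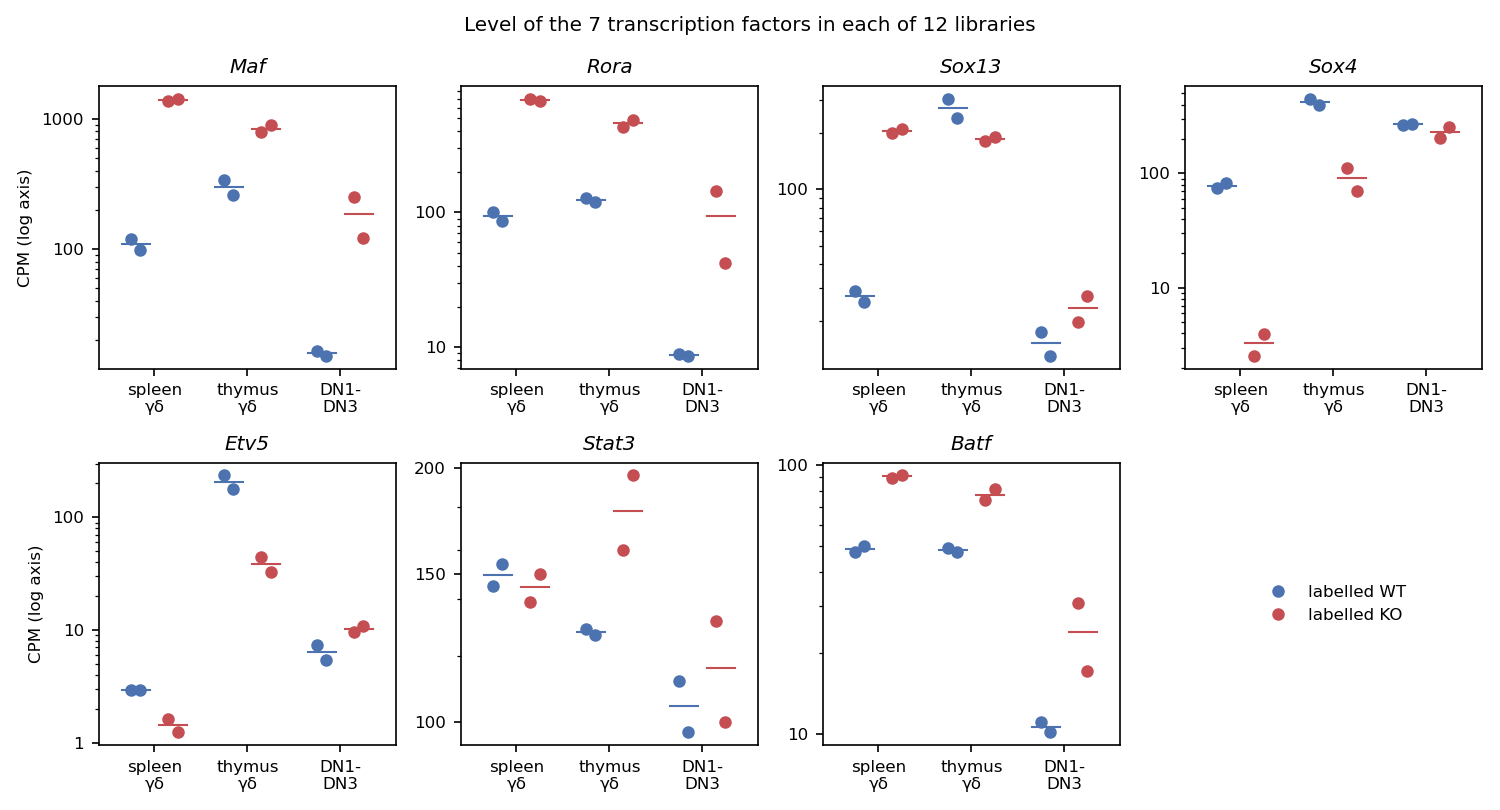
Level of each gene (CPM, log scale) in the 12 libraries, by compartment and label, with 1 point per library and a bar at the mean of 2 libraries. Maf and Rora lie highest in the splenic KO-labelled libraries and Sox4 and Etv5 in the thymic γδ WT-labelled ones, while Stat3 stays between 97.4 and 196 CPM.

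Maf, Rora and Batf were higher with the label KO in all 3 compartments. In spleen, Maf was 120 and 98.7 CPM in the WT-labelled libraries and 1365 and 1425 CPM in the KO-labelled ones. Thymic γδ T cells had 339 and 261 CPM against 788 and 896 CPM. In DN1-DN3 cells it was 16.5 and 15.2 CPM against 253 and 121 CPM. The label groups did not overlap in any compartment, and both pools gave the same direction, with KO to WT ratios of 11.4 and 14.4 in spleen, 2.32 and 3.43 in thymic γδ T cells and 15.4 and 8.0 in DN1-DN3 cells. All log2 differences (KO minus WT) and p-values adjusted over all genes come from the quasi-likelihood test of edgeR. For Maf the splenic log2 difference was 3.77 (SE 0.29, adjusted p = 4.1e-06). The thymic γδ difference was 1.61 (SE 0.26, adjusted p = 0.00071) and the DN1-DN3 difference 3.55 (SE 0.29, adjusted p = 5.4e-05). Markers of other cells moved with the label in spleen. The αβ T cell markers Trac, Cd4, Cd8a and Cd8b1 summed to 251 and 199 CPM (WT) against 60.0 and 65.2 CPM (KO), with 0 of the 4 at 0 in WT-labelled and 1 in each KO-labelled library, and cells with at least 2 UMIs of the 5 B cell markers were 2.29% and 1.92% against 6.33% and 6.37%. The 5 DN markers Kit, Il2ra, Ptcra, Rag1 and Dntt summed to 57.3 and 55.3 against 171 and 160 CPM, with 1 of the 5 at 0 in each library. Only their sum is given, so it is not read as a share of DN cells. The 4 globin genes summed to 41.8 and 37.1 against 165 and 73.6 CPM. In thymic γδ T cells, those with at least 2 UMIs of the αβ T cell markers were 14.3% and 13.2% (WT) against 6.59% and 5.66% (KO). The part of the αβ T cell, DN and globin transcripts was not tested, while without cells holding B cell or myeloid markers the splenic differences of all 7 genes kept their direction and their side of the threshold, with 3.86 for Maf and −4.47 for Sox4.

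Rora measured 101 and 85.9 CPM (WT) against 698 and 678 CPM (KO) in spleen, and 129 and 120 CPM against 428 and 490 CPM in thymic γδ T cells. In DN1-DN3 cells it was 8.93 and 8.64 CPM against 145 and 42.0 CPM. The groups did not overlap, but the KO-labelled DN1-DN3 libraries stood far apart from each other, at 16.2 and 4.86 times the WT level of their pool. Splenic Rora differed by 2.98 on the log2 scale (SE 0.42, adjusted p = 0.00020), thymic γδ Rora by 2.01 (SE 0.40, adjusted p = 0.0022) and DN1-DN3 Rora by 3.38 (SE 0.43, adjusted p = 0.00058). In the last it was 2.30 without KO replicate 1 and 3.95 without KO replicate 2, past the threshold both times. Maf was 2.98 and 3.91 under the same omissions.

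Batf, the AP-1 family member, changed less. It was 47.4 and 50.0 CPM (WT) and 89.7 and 91.4 CPM (KO) in spleen, 49.3 and 47.6 against 73.9 and 81.1 CPM in thymic γδ T cells, and 11.1 and 10.2 against 30.7 and 17.2 CPM in DN1-DN3 cells. The groups did not overlap. The log2 difference was 0.99 (SE 0.18, adjusted p = 0.0012), 0.80 (SE 0.18, adjusted p = 0.0044) and 1.15 (SE 0.19, adjusted p = 0.0021), and the last became 0.73 without KO replicate 1 and 1.43 without KO replicate 2.

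Sox4 and Etv5 went the other way in γδ T cells. Splenic Sox4 was 74.2 and 82.1 CPM in WT-labelled and 2.56 and 3.99 CPM in KO-labelled libraries, a log2 difference of −4.47 (SE 0.26, adjusted p = 8.0e-07) and, by pool, a WT level 28.9 and 20.6 times that of KO. Thymic γδ T cells had 449 and 394 CPM of Sox4 (WT) against 111 and 70.9 CPM (KO) (log2 −2.10, SE 0.23, adjusted p = 5.7e-05). The splenic WT-labelled libraries overlapped with the thymic KO-labelled ones. In DN1-DN3 cells, Sox4 was 264 and 272 CPM against 203 and 257 CPM, and the log2 difference of −0.21 (SE 0.22, adjusted p = 0.51) did not pass the test, although the groups did not overlap.

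Etv5 fell in thymic γδ T cells from 236 and 180 CPM (WT) to 44.8 and 32.6 CPM (KO) (log2 −2.31, SE 0.19, adjusted p = 1.3e-05), and the WT level was 5.27 and 5.52 times that of KO in pools 1 and 2. In spleen it was near the bottom of the scale, at 2.92 and 2.94 CPM against 1.62 and 1.24 CPM (log2 −0.96, SE 0.25, adjusted p = 0.0080). That splenic call rested on KO replicate 2, since leaving it out gave −0.73 (adjusted p = 0.078, range 0.00026 to 0.078 over all alternatives). In DN1-DN3 cells Etv5 was 7.30 and 5.39 CPM against 9.54 and 10.8 CPM (log2 0.69, SE 0.20, adjusted p = 0.031), a direction opposite to that in γδ T cells. The DN1-DN3 call was lost without any one of the 4 libraries, with an adjusted p of 0.051 to 0.18.

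Sox13 rose in spleen and had the opposite sign in thymic γδ T cells. In spleen it was 28.8 and 25.1 CPM (WT) against 199 and 210 CPM (KO) (log2 3.02, SE 0.20, adjusted p = 1.6e-06). The thymic γδ levels were 304 and 239 CPM against 182 and 190 CPM without overlap, and the log2 difference of −0.42 (SE 0.18, adjusted p = 0.082) did not pass the test. It passed with DESeq2 (adjusted p = 0.048) and in a fit of those 4 libraries alone (adjusted p = 0.035), within a range of 0.035 to 0.42 over the alternatives. In DN1-DN3 cells it was 17.3 and 13.0 CPM against 19.7 and 26.9 CPM (log2 0.63, SE 0.19, adjusted p = 0.039). With the pool as a block this was 0.62 with an adjusted p of 0.081, and without KO replicate 2 it was 0.29, in a range of adjusted p from 0.0045 to 0.22.

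Stat3 did not separate by label in spleen, at 145 and 154 CPM (WT) and 139 and 150 CPM (KO), where the groups overlapped. The log2 difference, fitted with TMM scaling, was 0.05 (SE 0.13, adjusted p = 0.79). Its sign is opposite to that of the CPM, and no direction is read. The thymic γδ levels were 129 and 127 CPM against 160 and 196 CPM (log2 0.60, SE 0.13, adjusted p = 0.0032). In DN1-DN3 cells the values of 112 and 97.4 CPM against 132 and 100 CPM overlapped (log2 0.15, SE 0.13, adjusted p = 0.45).

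In all, 6 of the 7 genes passed the test in spleen, where 54.7% of 14921 genes did, with 4 higher and 2 lower. The count was 6 of 7 in thymic γδ T cells, where 49.7% of genes passed, again with 4 higher and 2 lower. In DN1-DN3 cells it was 5 of 7 beside 23.0% of genes, all 5 higher. A fit of those 4 libraries alone gave only 3, beside 14.8% of genes. With such shares of all genes past the threshold, the sizes of the differences say more than the counts.

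**Figure D2:**
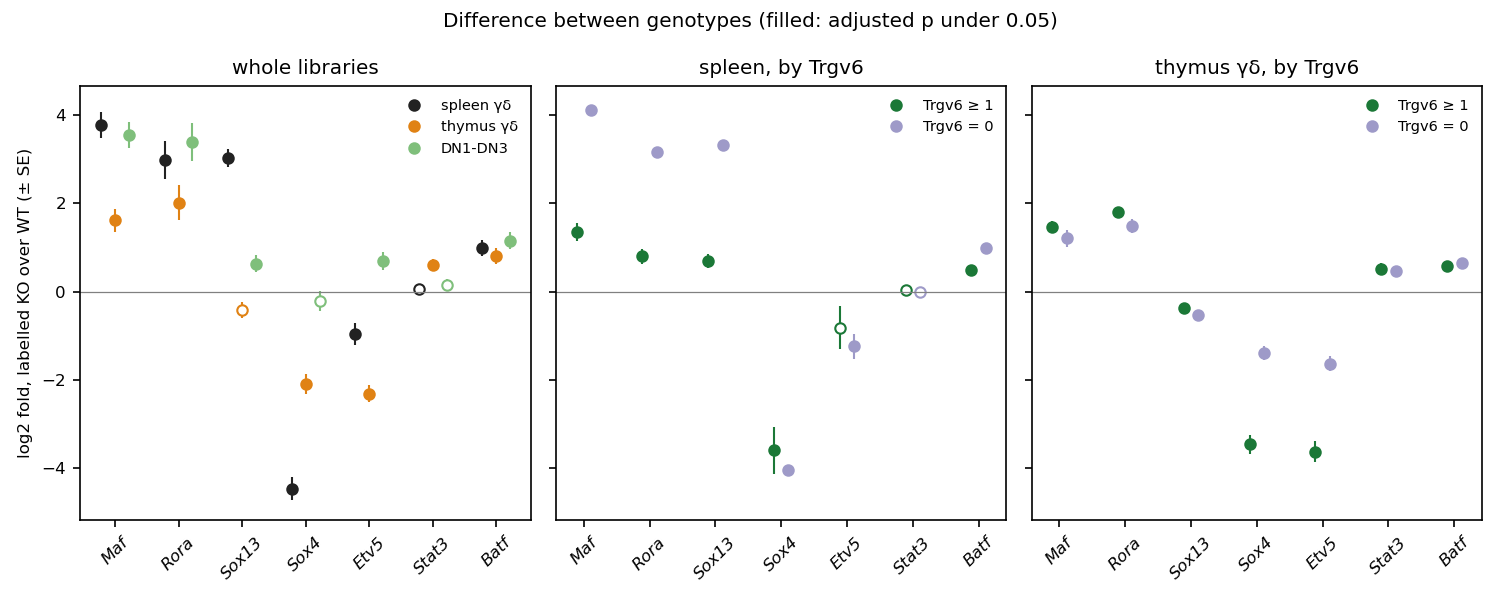
Difference between KO-labelled and WT-labelled libraries (log2, edgeR) for each gene, with bars of 1 SE and filled points for an adjusted p under 0.05. The left panel shows whole libraries of the 3 compartments, and the other panels show splenic and thymic γδ T cells divided by whether they had a UMI of Trgv6. In whole libraries, Maf and Rora lie above 1.5 in all 3 compartments, Sox4 and Etv5 lie below 0 in both γδ compartments, and Sox13 lies at 3.02 in spleen and at −0.42 in thymic γδ T cells.

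Whether the difference between the labels itself changed with the compartment was tested as an interaction. Between spleen and thymic γδ T cells it changed for 5 of the 7 genes, beside 29.6% of all genes. The splenic difference was more positive for Sox13, by 3.44 (SE 0.27, adjusted p = 3.6e-05), for Maf, by 2.16 (SE 0.37, adjusted p = 0.0024), and for Etv5, by 1.35 (SE 0.31, adjusted p = 0.010). It was more negative for Sox4, by −2.37 (SE 0.33, adjusted p = 0.00076), and for Stat3, by −0.56 (SE 0.18, adjusted p = 0.043), the last being lost when any library but thymic γδ KO replicate 1 was left out, with an adjusted p of 0.073 to 0.15. For Rora it was 0.97 (SE 0.55, adjusted p = 0.21) and for Batf 0.19 (SE 0.25, adjusted p = 0.62), and neither passed.

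Between thymic γδ T cells and DN1-DN3 cells the difference changed for 4 of the 7 genes, beside 21.9% of all genes, and all 4 were more negative in thymic γδ T cells. The values were −3.00 for Etv5 (SE 0.27, adjusted p = 0.00016), −1.93 for Maf (SE 0.37, adjusted p = 0.0059), −1.88 for Sox4 (SE 0.31, adjusted p = 0.0029) and −1.05 for Sox13 (SE 0.26, adjusted p = 0.019). The Sox13 value was between −0.87 and −0.98 and no longer past the threshold without thymic γδ WT replicate 1, thymic γδ KO replicate 1 or DN1-DN3 WT replicate 2. Rora gave −1.37 (SE 0.56, adjusted p = 0.11), and −2.01 past the threshold without DN1-DN3 KO replicate 2.

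The genes that these factors act with were followed as 3 lists. Of 14 γδT17 programme genes, 10 rose and 2 fell in spleen (median log2 difference 3.48), 13 rose and 1 fell in thymic γδ T cells (median 3.31) and 13 rose and 0 fell in DN1-DN3 cells (median 3.37), against a median of 0.00, 0.00 and −0.02 over all genes tested, of which 54.7%, 49.7% and 23.0% passed. Il17a had a log2 difference of 5.62 in spleen, 6.60 in thymic γδ T cells and 6.77 in DN1-DN3 cells. Blk, a Src family kinase gene, had 3.82, 2.13 and 2.17. Scart2, a scavenger receptor gene, fell in both γδ compartments (−3.36 and −2.01) and rose in DN1-DN3 cells (1.78). Ccr6, a chemokine receptor gene, fell in spleen (−2.43) and rose in the other two compartments (2.09 and 4.14), and the interleukin 7 receptor gene Il7r, at −0.52 in spleen (adjusted p = 0.096), rose by 2.26 in thymic γδ T cells and 1.41 in DN1-DN3 cells.

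Close relatives of the 7 factors moved in both directions. Of 20 relatives 19 were tested, and 4 rose and 8 fell in spleen, 6 rose and 6 fell in thymic γδ T cells and 4 rose and 3 fell in DN1-DN3 cells, with medians of −0.31, −0.29 and 0.13, beside the 54.7%, 49.7% and 23.0% of all genes that passed. Sox5, which like Sox13 belongs to the SoxD group, fell in spleen by 5.62 on the log2 scale (SE 0.19, adjusted p = 3.4e-08) while Sox13 rose there, and it fell by 1.98 in thymic γδ T cells and rose by 0.94 in DN1-DN3 cells. Etv1, of the same ETS subfamily as Etv5, fell by 4.20 in spleen and by 2.10 in thymic γδ T cells. Rorb, another gene of the Ror family, rose by 3.29 in spleen and 3.23 in thymic γδ T cells.

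Of 23 partner and regulator genes, 7 rose and 12 fell in spleen (median −0.52), 12 rose and 8 fell in thymic γδ T cells (median 0.45) and 10 rose and 0 fell in DN1-DN3 cells (median 0.41), beside the same shares of all genes. Irf4, whose product binds DNA with BATF, rose by 3.11, 1.73 and 2.94 in the 3 compartments. Tcf7 and Lef1, HMG box factor genes of T cell development like the Sox genes, fell by 3.75 and 3.70 in spleen and by 1.36 and 2.38 in thymic γδ T cells. Id3 fell by 4.17 in spleen and by 1.70 in thymic γδ T cells. The genes of the interleukin 6 receptor upstream of STAT3 had opposite signs in thymic γδ T cells alone of the 3 compartments. Il6st, the signalling chain, fell by 4.47 in spleen and by 1.59 in thymic γδ T cells and rose by 0.41 in DN1-DN3 cells (adjusted p = 0.048). Il6ra, the binding chain, fell by 3.38 in spleen and rose by 0.80 in thymic γδ T cells (adjusted p = 0.047) and 3.57 in DN1-DN3 cells.

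To ask whether the differences are also present among cells of like receptor usage, the γδ T cells of each library were divided into those with at least 1 UMI of Trgv6, the γ chain segment of Vγ6+ cells, and those with none. In spleen, 403 and 528 WT-labelled cells (5.15% and 4.73%) and 4939 and 7529 KO-labelled cells (63.2% and 64.5%) had a Trgv6 UMI. Thymic γδ T cells gave 154 and 200 cells (2.26% and 2.51%) against 3149 and 3930 cells (46.3% and 51.5%). The background in DN1-DN3 cells was 0.416% and 0.321% (WT) against 1.30% and 1.12% (KO). A Trgv6 transcript can be missed, and splenic cells without one had fewer UMIs, with medians of 4882 and 4985.5 against 6200 and 6143.5 (WT) and of 4998 and 4960.5 against 5760 and 5663 (KO). The class without Trgv6 UMIs can therefore hold Vγ6+ cells, and more of them where Vγ6+ cells are common. A Trgv6 UMI can also be stray, because both labels of a pool shared a droplet run. The small WT-labelled classes with Trgv6 can therefore hold other γδ T cells, and the part of these was not tested.

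In WT-labelled spleen, Maf, Rora and Sox13 were several-fold higher in the cells with a Trgv6 UMI. Maf was 652 and 446 CPM in these cells and 83.1 and 75.7 CPM in the other cells of the same libraries (log2 2.79, SE 0.12, adjusted p = 3.7e-07). Rora was 463 and 347 CPM against 75.6 and 68.6 CPM (log2 2.50, SE 0.095, adjusted p = 8.6e-08). Sox13 was 144 and 112 CPM against 20.9 and 19.4 CPM (log2 2.68, SE 0.088, adjusted p = 3.8e-08). For each of these, both libraries gave the same order without overlap. Batf was 64.2 and 62.5 against 46.2 and 49.2 CPM (log2 0.43, SE 0.080, adjusted p = 0.0031). Sox4 was lower, at 17.6 and 44.1 CPM against 78.1 and 84.6 CPM, but its log2 difference of −1.34 (SE 0.35, adjusted p = 0.070) did not pass. It passed with DESeq2, in thinned cells, with a minimum of 2 Trgv6 UMIs and without WT replicate 2, with values of −1.49 to −2.10. In all, 4 of the 7 genes passed, beside 28.6% of all genes.

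In KO-labelled spleen the classes lay closer together for Maf, Rora and Sox13. Maf was 1412 and 1438 CPM in cells with a Trgv6 UMI and 1269 and 1396 CPM in cells without, and Rora was 738 and 698 against 616 and 633 CPM. Sox13 was 205 and 213 against 188 and 204 CPM. Each of these was slightly higher with a Trgv6 UMI, without overlap. Sox4, near the bottom of the scale, was 1.53 and 3.60 against 4.67 and 4.84 CPM. Of the 7 genes 0 passed the test with edgeR, 0 had an unadjusted p under 0.05 and 0 passed with DESeq2, beside 0.143% of all genes. The nearest was Rora, with a log2 difference of 0.19 (SE 0.086, adjusted p = 0.61). The count became 1 with a minimum of 2 Trgv6 UMIs, beside 3.35% of all genes, and there Sox4 passed at −0.88.

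The difference between the labels was present in both classes of splenic cells but not by the same amount. Among cells with a Trgv6 UMI, Maf differed by 1.35 (SE 0.20, adjusted p = 0.0013), Rora by 0.80 (SE 0.17, adjusted p = 0.0087), Sox13 by 0.69 (SE 0.15, adjusted p = 0.0080) and Batf by 0.49 (SE 0.11, adjusted p = 0.013), all higher with the label KO. Sox4 was 17.6 and 44.1 CPM (WT) against 1.53 and 3.60 CPM (KO) (log2 −3.60, SE 0.54, adjusted p = 0.0085). Thus 5 of the 7 genes passed, beside 22.1% of all genes. With a minimum of 2 Trgv6 UMIs 3 did, beside 13.1% of all genes, and Sox13 and Batf were lost. Among cells without a Trgv6 UMI, 6 of the 7 passed, beside 57.1% of all genes, with 4.11 for Maf (SE 0.10, adjusted p = 4.5e-08), 3.16 for Rora (SE 0.095, adjusted p = 7.6e-08), 3.33 for Sox13 (SE 0.089, adjusted p = 5.4e-08) and −4.05 for Sox4 (SE 0.10, adjusted p = 4.5e-08).

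Tested as an interaction, the difference was smaller in cells with a Trgv6 UMI for 4 of the 7 genes, beside 17.9% of all genes. The values were −2.70 for Maf (SE 0.16, adjusted p = 5.2e-06), −2.31 for Rora (SE 0.13, adjusted p = 1.7e-06), −2.59 for Sox13 (SE 0.11, adjusted p = 3.9e-07) and −0.45 for Batf (SE 0.097, adjusted p = 0.011). Batf was lost without either KO-labelled library, at −0.49 and −0.43. For Sox4 the interaction was 0.50 (SE 0.60, adjusted p = 0.65).

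**Figure D3:**
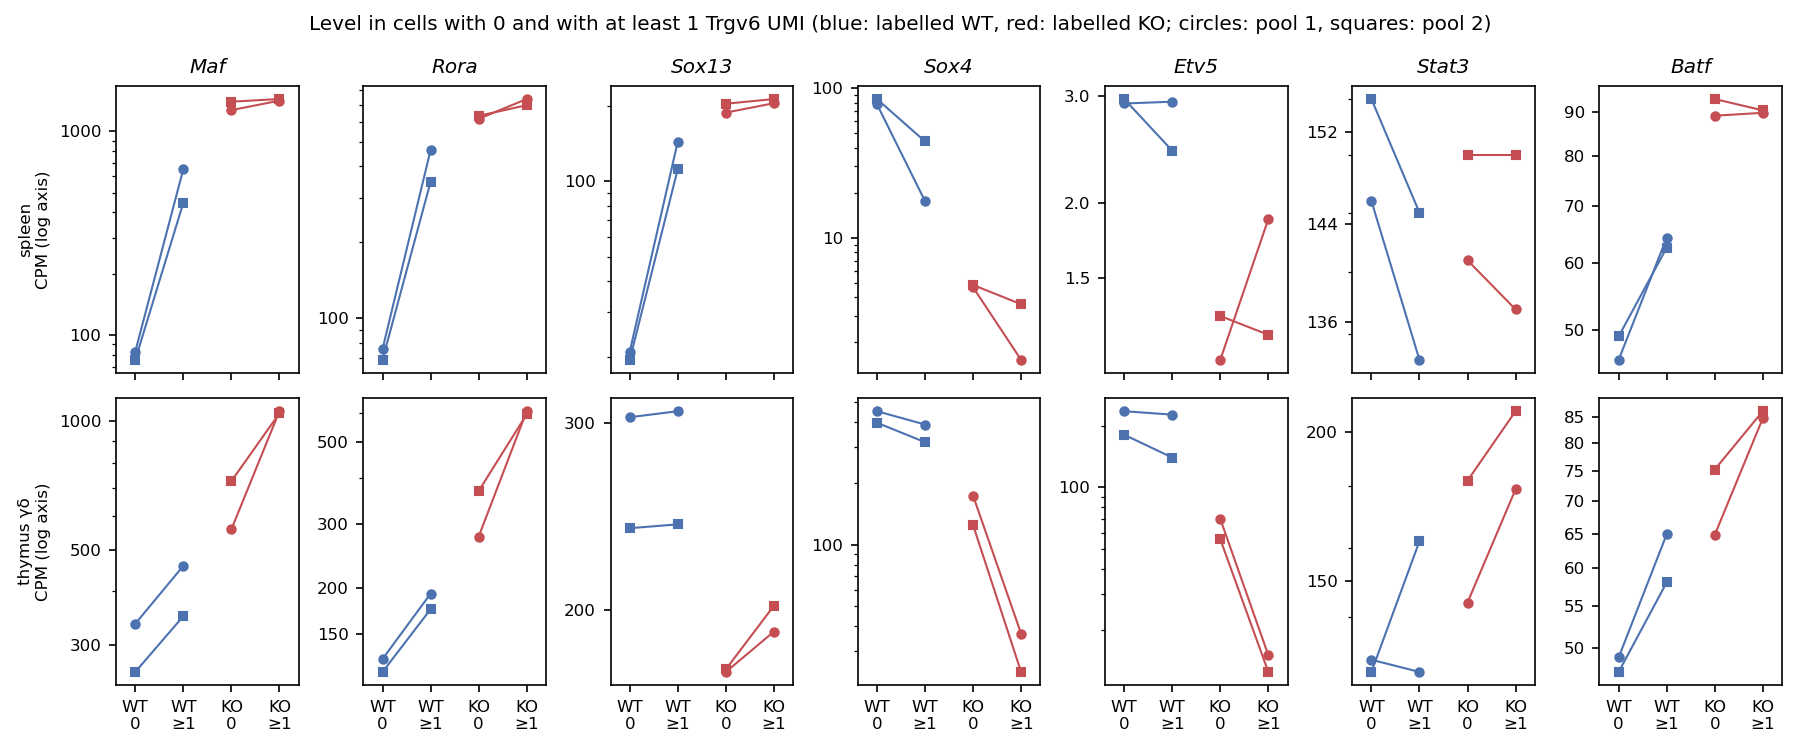
Level of each gene (CPM, log scale) in cells with at least 1 UMI of Trgv6 and cells with none, for spleen and thymic γδ T cells, with blue for WT-labelled and red for KO-labelled libraries, circles for pool 1 and squares for pool 2. In spleen, Maf is 446 and 652 CPM in WT-labelled cells with Trgv6 and at most 83.1 CPM in those without, while all KO-labelled values lie between 1269 and 1438 CPM.

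In the thymus, Sox4 and Etv5 differed between the classes under the label KO and did not pass the test under the label WT, while Maf and Rora passed under both. In WT-labelled thymic γδ T cells, Maf was 459 and 350 CPM with a Trgv6 UMI and 336 and 259 CPM without (log2 0.45, SE 0.092, adjusted p = 0.030), and Rora was 193 and 175 against 128 and 118 CPM (log2 0.59, SE 0.11, adjusted p = 0.027). These 2 of 7 genes passed, beside 1.12% of all genes, and neither did without either WT-labelled library, each of which holds few Trgv6 cells. Sox4 was 388 and 318 against 451 and 396 CPM (log2 −0.26, SE 0.074, adjusted p = 0.14), and Etv5 was 227 and 140 against 236 and 181 CPM (log2 −0.20, SE 0.089, adjusted p = 0.44).

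In KO-labelled thymic γδ T cells all 7 genes passed, beside 35.3% of all genes. Sox4 was 36.7 and 23.8 CPM with a Trgv6 UMI and 174 and 125 CPM without (log2 −2.26, SE 0.077, adjusted p = 7.7e-12). Etv5 was 15.1 and 12.5 against 70.1 and 55.8 CPM (log2 −2.13, SE 0.091, adjusted p = 9.6e-11). Both genes of early γδ thymocytes were thus lower in the cells with Trgv6 in each library. Maf was 1057 and 1045 against 559 and 725 CPM (log2 0.78, SE 0.085, adjusted p = 9.9e-06), and Rora was 608 and 596 against 276 and 368 CPM (log2 0.97, SE 0.093, adjusted p = 1.1e-05). The smaller differences of Sox13 (0.22), Stat3 (0.31) and Batf (0.35) also passed, but each lost the call under at least 1 alternative.

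Between the labels, all 7 genes passed among thymic cells with a Trgv6 UMI, beside 41.9% of all genes, and all 7 among those without, beside 42.4%. The count in cells with Trgv6 was 4 with a minimum of 2 UMIs, beside 19.8% of all genes. That minimum leaves 39 and 41 such cells in the WT-labelled libraries. Sox4 differed by −3.46 (SE 0.22, adjusted p = 0.00015) with a Trgv6 UMI and by −1.40 (SE 0.16, adjusted p = 0.0028) without, and Etv5 by −3.63 (SE 0.24, adjusted p = 0.00011) and −1.63 (SE 0.16, adjusted p = 0.0019). Maf differed by 1.47 and 1.21 and Rora by 1.80 and 1.49, while Sox13 was lower with the label KO in both, by −0.38 (SE 0.12, adjusted p = 0.032) and −0.53 (SE 0.12, adjusted p = 0.022). In cells without Trgv6, a smaller share of all genes passed when either WT-labelled library was left out. Fewer of the 7 passed without WT replicate 1. The interaction passed for 2 of the 7 genes, beside 8.03% of all genes, and was −2.01 for Sox4 (SE 0.11, adjusted p = 4.4e-09) and −1.93 for Etv5 (SE 0.13, adjusted p = 5.8e-08). For Maf it was 0.33 (SE 0.12, adjusted p = 0.15) and for Rora 0.38 (SE 0.14, adjusted p = 0.16), and neither passed.

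Cells without a Trgv6 UMI in which another segment led were read as a description, without a test. In spleen, cells led by Trgv1 had 57.7 and 64.0 CPM of Maf in 669 and 1045 cells labelled WT and 1122 and 1289 CPM in 139 and 198 cells labelled KO. Cells led by Trgv4 had 96.3 and 82.9 CPM in 278 and 322 cells against 1191 and 1278 CPM in 61 and 67 cells. Cells led by Trgv2, the largest class, had 87.8 and 73.9 CPM in 3050 and 4791 cells against 1240 and 1414 CPM in 740 and 1426 cells. For each of these segments the KO-labelled values were near the level of all KO-labelled splenic cells. Trgv segments are similar in sequence, and reads can be split among them.

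In thymic γδ T cells the segments differed from each other. Cells led by Trgv4 already had 590 and 427 CPM of Maf with the label WT, in 329 and 375 cells, and 598 and 629 CPM with the label KO, in 119 and 119 cells. Their Rora was 232 and 164 against 216 and 245 CPM. Their Sox4 was 566 and 447 against 318 and 216 CPM, and their Etv5 was 390 and 238 against 115 and 160 CPM. Between the labels, Rora overlapped in Trgv4-led cells and the Maf values adjoined, whereas Sox4 and Etv5 did not overlap. Cells led by Trgv1 had 164 and 172 CPM of Maf against 430 and 620 CPM, in 711 and 873 against 420 and 270 cells. Cells led by Trgv2, again the largest class, had 336 and 262 CPM of Maf in 3637 and 4255 cells against 483 and 597 CPM in 1412 and 1222 cells. Their Sox4 was 459 and 407 against 215 and 183 CPM, and their Etv5 was 256 and 203 against 90.2 and 79.9 CPM, both lower with the label KO in each pool.

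The share of cells with a UMI moved with the CPM for most of the genes. Maf was detected in 20.2% and 21.2% of WT-labelled and in 97.3% and 97.8% of KO-labelled splenic cells. With every cell thinned to 2000 UMIs the shares were 13.5% and 12.9% against 89.0% and 90.6%. For Rora they were 24.6% and 23.2% against 91.6% and 92.8%, or 14.2% and 12.8% against 69.9% and 71.5% thinned. Splenic Sox4 was found in 20.8% and 23.3% of cells against 1.04% and 2.04%. In thymic γδ T cells, Etv5 was found in 49.0% and 42.1% against 11.8% and 8.46%, and Sox4 in 76.4% and 76.0% against 22.9% and 15.3%. Sox13 in thymic γδ T cells and Stat3 in both γδ compartments were exceptions. The share of Sox13 in thymic γδ T cells was 55.3% and 48.8% (WT) against 58.8% and 61.3% (KO), against the order of its CPM, but thinned it was 37.3% and 29.7% against 30.3% and 31.6%, so no order is read from it. Stat3, with a higher thymic γδ CPM under the label KO, was found in 59.6% and 59.6% of cells (WT) against 56.4% and 63.1% (KO), and thinned in 25.3% and 24.3% against 27.9% and 31.6%. Its splenic share was 48.8% and 50.4% against 51.7% and 55.4%, and thinned 25.3% and 26.2% against 24.4% and 25.8% with overlap.

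In DN1-DN3 cells Maf was found in 7.85% and 6.63% of WT-labelled cells (median depth 6231 and 5975 UMIs) and in 51.3% and 36.9% of KO-labelled cells. For comparison, 142 and 169 cells of the WT-labelled libraries had at least 2 UMIs of B cell markers. Their median depth was 8132 and 7042 UMIs, and they held Maf in 4.93% and 7.69%. The share over all WT-labelled DN1-DN3 cells was not above theirs in both libraries. The cells with B cell markers also held Sox4 in 82.4% and 86.4%, more often than the 68.4% and 71.9% of all cells. They are thus no clean background, and whether the Maf share is expression throughout cannot be decided from them. WT-labelled cells with a Trac UMI held Maf more often than the cells with B cell markers, at 29.2% and 31.6%. Of the other genes, only Etv5 was above the cells with B cell markers in both WT-labelled libraries. It was in 3.57% and 3.16% of all cells against 2.11% and 2.96%. Rora was in 4.79% and 4.52% of all cells against 4.23% and 5.33%. The KO-labelled libraries had a median depth of 5590.5 and 5792 UMIs. In them the same markers chose 120 and 224 cells, with a median depth of 8729 and 9444.5 UMIs. These held Maf in 36.7% and 30.4%, below the 51.3% and 36.9% of all cells, and Rora in 13.3% and 4.02%. In the cells with B cell markers, as in all cells, the Maf share was higher with the label KO. Both labels of a pool shared a droplet run, and the part of its free RNA was not tested. Sox13, Sox4, Etv5 and Stat3 were in more of the KO-labelled cells with B cell markers than of all KO-labelled cells. The shares were 13.3% and 17.4% against 10.4% and 15.8% for Sox13, and 68.3% and 64.3% against 44.7% and 61.0% for Sox4. What the cells with B cell markers are, such as droplets that also held a T cell, was not tested. They give no background in spleen, where cells with B cell markers held Maf more often than all cells did, in 57.0% and 49.5% (WT) and 99.2% and 99.3% (KO). Nor do they in thymic γδ T cells, where they held Maf about as often as all cells. The shares there were 57.6% and 47.0% (WT) and 88.9% and 89.6% (KO).

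The genes were counted together in each cell. At least 3 of the 7 were detected in 18.5% ± 0.358 (SD, n = 2) of WT-labelled and 84.5% ± 1.5 of KO-labelled splenic cells. They differed by 66.0 points, or by 38.2 points when cells were thinned. In DN1-DN3 cells the shares were 14.7% ± 1.89 and 33.4% ± 5.99, a difference of 18.7 points, or 5.93 thinned. The thymic γδ shares were 69.5% ± 1.72 and 80.4% ± 3.25, a difference of 10.9 points, but thinned they were 34.6% ± 4.74 and 38.5% ± 2.29, a difference of 3.94 points within the spread. The exact two-sided permutation p was 0.33 in each compartment, the smallest that 2 libraries against 2 allow, and 0.67 for thinned thymic γδ T cells. All 7 genes together were detected in 5.0% and 4.30% of WT-labelled and in 0.957% and 0.551% of KO-labelled thymic γδ T cells.

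**Figure D4:**
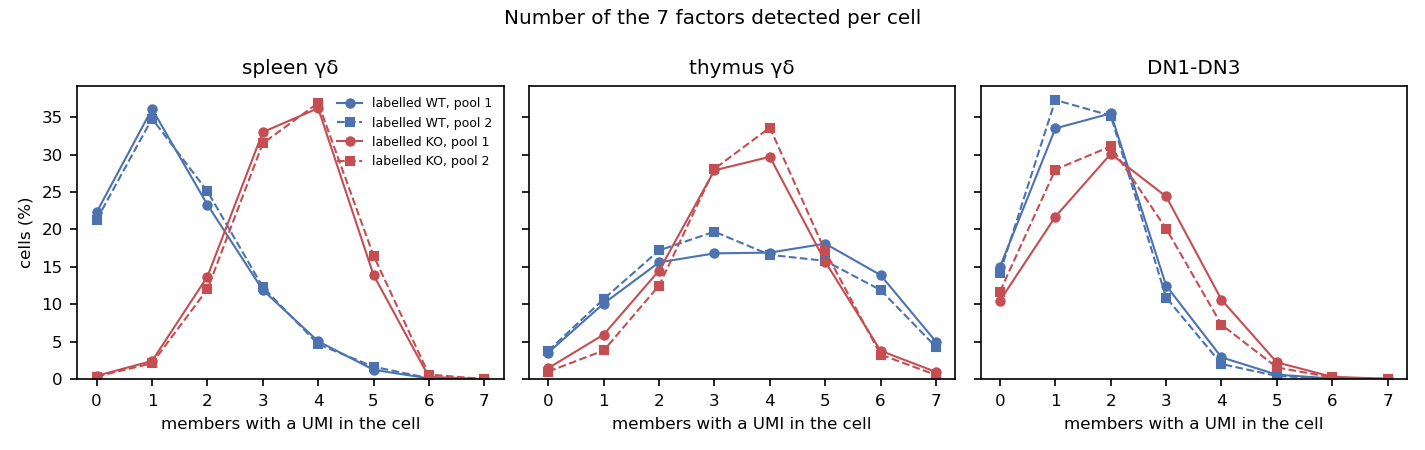
Share of cells (percent) in which 0 to 7 of the 7 genes had a UMI, for each of the 12 libraries by compartment and label. The splenic libraries move from a median of 1 gene per cell with the label WT to 4 with the label KO, whereas thymic γδ T libraries have medians of 4 and 3 with the label WT and 4 with the label KO.

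Co-detection was measured as the share of cells with UMIs of both genes, divided by the product of the single shares, in cells thinned to 2000 UMIs, and is given as a description. A value of 1 is that of genes spread independently over cells, and the ratio cannot rise far above it where nearly all cells hold a gene. In WT-labelled spleen Maf and Rora were found together in 5.66% and 4.65% of cells, 2.94 and 2.82 times the product, and Maf and Sox13 at 4.56 and 4.25 times. Sox4 avoided these cells, with 0.493 and 0.766 times the product for Maf and 0.260 and 0.559 for Sox13. In KO-labelled spleen Maf and Rora were together in 63.2% and 65.3% of cells and the ratio was 1.01 and 1.01.

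Among thymic γδ T cells the place of Sox4 and Etv5 changed with the label. Under the label WT they were found with the γδT17 genes more often than the product, at 1.20 and 1.15 for Maf with Sox4, 1.49 and 1.6 for Maf with Etv5, and 1.10 and 1.08 for Rora with Sox4. Under the label KO these were 0.738 and 0.745, 0.851 and 0.832, and 0.674 and 0.639, on the other side of 1 in both libraries. Sox4 and Etv5 stayed with each other, in 18.7% and 14.5% of WT-labelled cells, 1.24 and 1.28 times the product, and in 2.44% and 1.29% of KO-labelled cells, 3.62 and 4.33 times the product. Sox13 and Etv5 were at 1.76 and 2.07 against 1.23 and 1.35.

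In DN1-DN3 cells Maf and Rora were found together in 0.498% and 0.420% of WT-labelled cells, 7.27 and 6.80 times the product, and in 14.9% and 5.23% of KO-labelled cells, 2.03 and 3.18 times. Rora and Sox4 were at 0.740 and 0.736 against 0.324 and 0.255, and Maf and Sox4 at 0.763 and 0.845 against 0.522 and 0.740. Maf with Batf was above 1 under both labels, at 3.68 and 3.14 against 1.70 and 2.15. Thinned, Maf was found in 3.55% and 3.16% of the WT-labelled cells here. The WT-labelled ratios with Maf therefore rest on few cells.

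**Figure D5:**
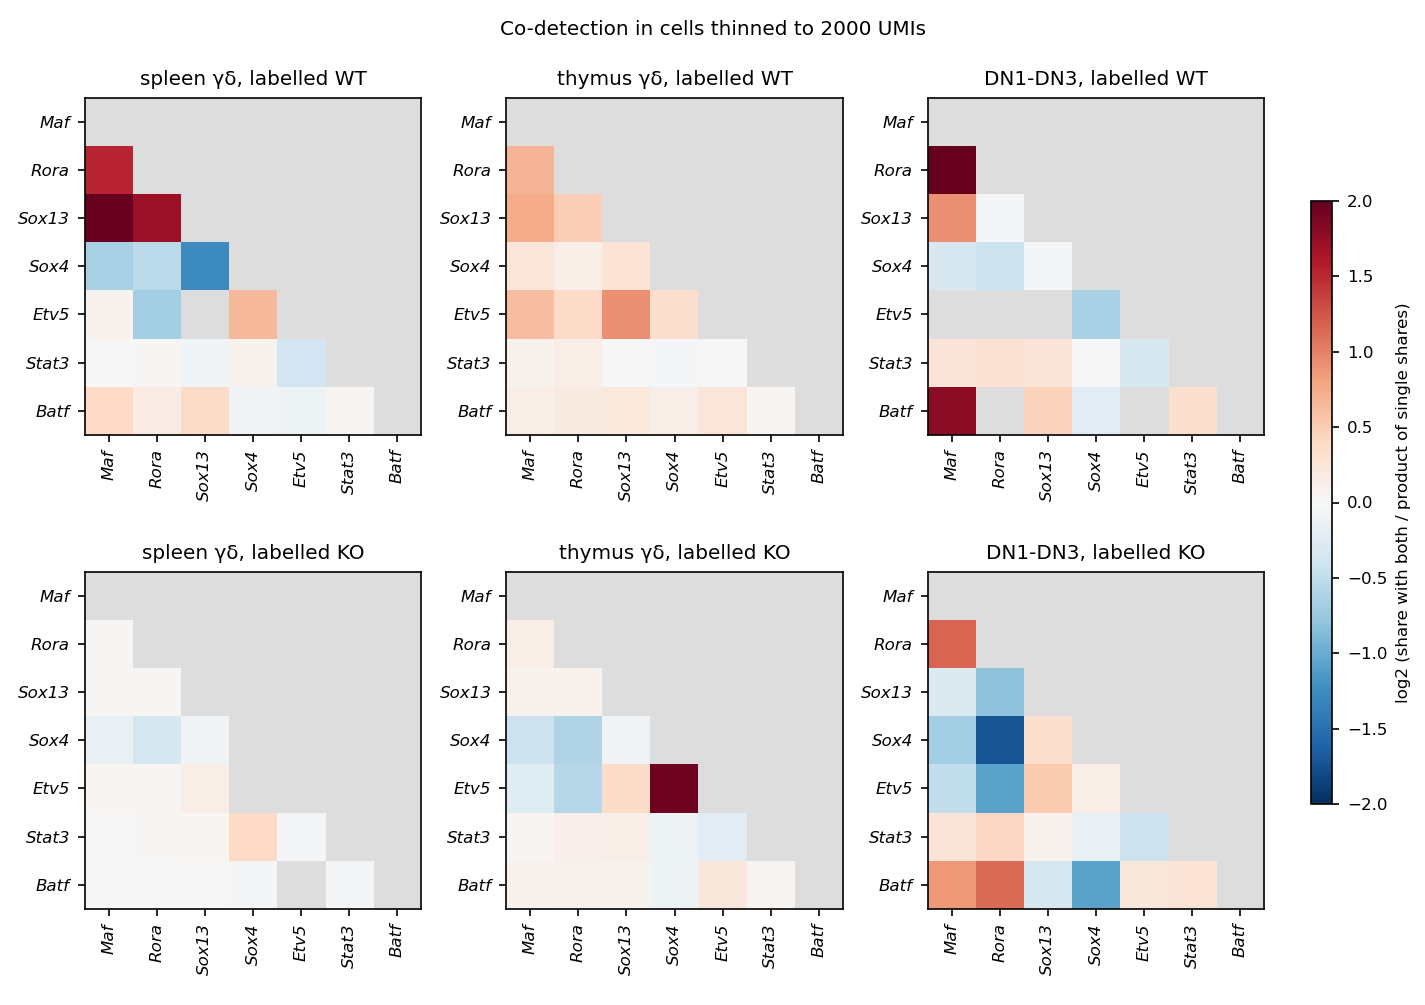
Co-detection of pairs of the 7 genes in thinned cells, by compartment and label, as log2 of the observed share of cells with both genes over the product of the single shares (mean of 2 libraries), with grey where the product was under 0.05% or no cell held both and colours that saturate at −2 and 2. In thymic γδ T cells Sox4 and Etv5 lie above 0 with Maf and Rora under the label WT and below 0 under the label KO.

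The DN1-DN3 cells that held Maf were looked at further, because αβ T cell markers rose with the label KO there, opposite to spleen. The 4 αβ T cell markers summed to 27.3 and 31.3 CPM (WT) against 164 and 72 CPM (KO), and the 5 DN markers to 1663 and 1639 against 1156 and 1447 CPM. KO replicate 1, with the most Maf and Rora, also had the most αβ T cell transcripts and the fewest DN transcripts. Of the 3587 and 2791 cells with a Maf UMI in the KO-labelled libraries, 50.4% and 31.5% held Trac, against 19.1% and 10.0% of the cells without Maf. Blk was in 56.6% and 45.3% against 29.6% and 27.8%, whereas Ptcra, the pre-TCR gene of DN3 cells, was in 19.5% and 38.6% against 39.3% and 52.6%.

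Maf and Rora were also higher with the label KO in DN1-DN3 cells without a Trac UMI. Maf was 9.74 and 8.74 CPM (WT) against 150 and 80.3 CPM (KO) in such cells, and Rora was 5.75 and 4.82 against 83.8 and 22.5 CPM. In cells with a Trac UMI, Maf was 89.3 and 85.4 against 455 and 346 CPM. Among cells with a UMI of Ptcra it was 8.55 and 6.71 against 93.2 and 64.1 CPM, and among cells with a UMI of Kit, the receptor gene of the earliest DN cells, 9.66 and 7.63 against 94.6 and 70.2 CPM. Cells with B cell markers had 9.49 and 11.2 CPM (WT) against 109 and 56.5 CPM (KO) of Maf, near the Ptcra and Kit subsets under each label. The labels shared their droplet runs, and what the cells with B cell markers are was not tested. No background is therefore read from them under either label. The Trac, Ptcra and Kit subsets were not tested, and a cell without a Trac UMI can be an αβ T cell in which Trac was missed.

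Across the 12 libraries, which share compartments, labels and depth, the levels of some of the genes followed each other. Pearson's r of log2(CPM + 1) was 0.98 for Maf with Rora, 0.96 for Rora with Batf, 0.92 for Maf with Batf and 0.64 for Sox4 with Etv5, and −0.66 for Rora with Sox4. Among the 6728 genes that averaged 20 CPM or more, the 3 most like Maf were Atf6 (r = 0.988), Vim (0.986) and Evi2a (0.984). Those most like Rora were Gng2 (0.995), Evi2a (0.989) and Trpv2 (0.988), and those most like Batf were Pstpip1 (0.997), Inpp4a (0.990) and Zap70 (0.990). For Sox13 they were Cd247 (0.968), Pdcd1 (0.949) and Pik3cg (0.945). For Sox4 they were Hectd2 (0.988), 2610307P16Rik (0.987) and Bcl9 (0.984), for Etv5 Tox2 (0.984), Hacd3 (0.949) and Ube2r2 (0.948), and for Stat3 Rab40c (0.975), Crtc3 (0.960) and Sbno2 (0.948). None of the 7 genes was among the 3 most like another.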

How the data were processed

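The authors deposited unnormalized UMI counts for each gene in each cell, made with Cell Ranger 8.0.1 on GRCm39 per the submitters' processing notes and split by hashtag (hashsolo, which removes doublets of unlike tags). No further doublet caller was run. The compartment follows the label of each pool, and the genotype that of the hashtag of each library. Of 97404 barcodes 96911 remained after limits of 500 UMIs and 200 genes from below and 20% mitochondrial counts from above. The depth was 42091895 to 71663962 UMIs for whole libraries, but as low as 1495489 UMIs for the Trgv6 classes of γδ T cells and 310716 UMIs for cells grouped by leading segment, whose values are less precise.

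UMI counts were summed per library and cell class, and 9538 ribosomal, Gm-numbered and mitochondrial genes were left out of the tests. The sums were tested in R 4.3.3 with limma 3.58.1 and edgeR 4.0.16, using the robust quasi-likelihood F test with TMM, filterByExpr and two-sided Benjamini-Hochberg adjusted p-values over all genes tested, with a threshold of 0.05. Whole compartments were contrasts in a fit of all 12 libraries. Cells of like Trgv6 status were compared over the 4 libraries of a compartment, and Trgv6 classes within a library with the library as a term. CPM is relative to all gene UMIs of the kept cells. Shares of cells were compared by the exact permutation test. Thinning drew 2000 UMIs per cell and left out shallower cells. Other steps used scipy 1.17.1, pandas 2.3.3, numpy 2.4.6 and matplotlib 3.10.9 in Python 3.11.15. The test script was checked on simulated data.

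The WT and KO libraries of a pool share a droplet run, so the pool numbers pair them. Their deviations from the group means correlated at 0.55 in spleen, 0.07 in thymic γδ T cells and 0.44 in DN1-DN3 cells over 6931 genes.

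The 7 genes and the lists were chosen with earlier results of these data known. The genes named are the 7 in every comparison, examples from the 3 lists, Gfi1 and, for each of the 7, the 3 genes of highest Pearson r over the 12 libraries. Xist was added after its values were seen. Some members of the lists are counted but not reported here by name. Alternatives were DESeq2 1.42.0, no filter on low counts, all genes kept, the pool as a block, cells with 2 or more B cell or myeloid marker UMIs removed, fits of single compartments, thinned cells, a minimum of 2 Trgv6 UMIs or of 2 UMIs for detection, and leaving out each library.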

Additional observations from a re-analysis of the deposited data

Results flagged for a closer look

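The results below were singled out because the difference between the labels, KO minus WT on the log2 scale, itself differed between groups of cells in an edgeR interaction test. Between spleen and thymic γδ T cells it differed by 3.44 for Sox13, which was higher with the label KO in spleen and had the opposite sign in the thymus without passing the test there. For Maf, higher with the label KO in both, the splenic difference was larger by 2.16. For Sox4, lower in both, the interaction was −2.37, the splenic fall being the deeper. For Etv5, also lower in both, it was 1.35, the thymic fall being the deeper. For Stat3 it was −0.56, with a thymic rise and no splenic change past the threshold.

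Between thymic γδ T cells and DN1-DN3 cells, the interaction was −3.00 for Etv5, which fell in the former and rose in the latter. It was −1.93 for Maf, which rose in both and more in DN1-DN3 cells. It was −1.88 for Sox4, which fell in thymic γδ T cells, and −1.05 for Sox13.

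Between splenic cells with and without a Trgv6 UMI, the difference was smaller in the cells with Trgv6 for Maf (−2.70), Rora (−2.31), Sox13 (−2.59) and Batf (−0.45). In the thymus the fall of Sox4 (−2.01) and Etv5 (−1.93) was deeper in the cells with Trgv6. The WT-labelled thymic cells with Trgv6 numbered 154 and 200, and how many held a stray UMI was not tested. Groups of 2 libraries are too small for a test of single outlying libraries.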

How the results depend on the processing

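Of the values of single members under the alternatives, 883 kept their direction and side of the threshold, 57 lost the call, 19 gained it and 21 changed sign, none of the last being past the threshold as reported. The count of members called in DN1-DN3 cells was 3 in a fit of those 4 libraries, beside 14.8% of all genes, and was also lower with each library left out. With a minimum of 2 Trgv6 UMIs the counts were 3 in splenic and 4 in thymic cells with Trgv6 between labels, and 1 between classes in KO-labelled spleen. Beside them, 13.1%, 19.8% and 3.35% of all genes passed. With each library left out, the counts were 4 to 7 in thymic cells without Trgv6, 0 to 0 between classes in WT-labelled thymus, and 2 to 4 for the thymic Trgv6 interaction, which was 4 without a filter on low counts. Thinned, the difference in the share of cells with at least 3 members was 38.2, 3.94 and 5.93 points in spleen, thymic γδ T and DN1-DN3 cells. The cause of these shifts was not tested.

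With the pool as a replicate block, 4 members passed in DN1-DN3 cells, where Sox13 was lost, and no other member's call changed. The blocked counts were 6 in spleen and in thymic γδ T cells, 5 and 4 for the interactions between compartments, 5 and 6 in splenic cells with and without Trgv6, and 7 in both thymic classes.

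Sign changes, as log2 differences, mostly came with a library left out, where ranges are given. Stat3 was −0.01 to 0.07 in spleen, −0.01 to 0.25 in DN1-DN3 cells, −0.00 to 0.07 in splenic cells with Trgv6 (−0.07 thinned), −0.04 to 0.04 in those without (−0.02 without a filter, −0.01 thinned), −0.02 to 0.37 between classes in WT-labelled thymus and −0.06 to 0.33 in the thymic Trgv6 interaction, and −0.02 in the splenic one thinned. Etv5 was −0.30 to 0.05 between classes in WT-labelled spleen (0.17 thinned), −0.12 to 0.75 in KO-labelled spleen and −0.01 to 0.88 in the splenic interaction, where Sox4 was −0.23 to 1.28. Batf was −0.70 to 0.00 between thymic γδ T and DN1-DN3 cells and −0.09 to 0.09 in the thymic Trgv6 interaction (0.01 without a filter, 0.01 with all genes kept), where Rora was −0.05 with 2 Trgv6 UMIs. The share of thymic γδ T cells with Sox13 differed by −2.50 points thinned and −9.32 points for 2 UMIs, and that of splenic cells with Stat3 by −0.675 points thinned.

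Over all genes, counts of calls moved by more than 1.5 times in DN1-DN3 cells (3427 to between 1678 and 2077), in the compartment interactions (4410 to as few as 2637, 3261 to as few as 1887), in splenic cells with Trgv6 (2653 to as few as 1463), between classes in WT-labelled spleen (3792 to 2258), KO-labelled spleen (19 to as many as 433), WT-labelled thymus (149 to between 19 and 495) and KO-labelled thymus (4712 to as few as 2592), in the splenic Trgv6 interaction (2376 to between 729 and 3769), in thymic cells with (4965 to as few as 2131) and without Trgv6 (5777 to as few as 2082), and in the thymic interaction (1073 to between 387 and 1705).

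Each group has 2 libraries, so the exact test cannot go below 0.33. Where a library was left out of a pair, the remaining one is assumed to vary like the other groups. Splenic Etv5 is near the limit of detection at 1.24 to 2.94 CPM. Intervals and tests cover no difference in capture between cell types.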
